A study of Mus musculus and Homo sapiens with 10 samples.

Results

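Vomeronasal type 1 receptor genes (Vmn1r) were taken as the mouse protein-coding genes whose symbol is Vmn1r followed by digits in RefSeq's gene table for GRCm38.p6, which is the assembly that mm10 displays. The rule found 230 genes, of which 228 of the 21523 protein-coding genes scored could be placed. Vmn1r186 and Vmn1r187 were not scored, because the annotation lists them below 3 Mb on chromosome 7, where the placed sequence has not yet begun. The midpoint of each gene was looked up in lists of lamina-associated domains (LADs), the stretches of chromatin that lie at the nuclear lamina. The lists came from DamID, in which a chromatin protein fused to the bacterial adenine methyltransferase Dam marks GATC sites near the places it touches.

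The study had 10 samples in 8 groups, 7 of them from N2A cells, a mouse neuroblastoma line, to which the mouse LAD lists relate. These were LaminB1-Dam (1 sample) and Dam alone (1 sample) read by Nanopore-DamID, a sample labelled 10% LaminB1-Dam (1), a wild-type sample (1), and Dam alone (1) and LaminB1-Dam (2) read by Illumina-DamID. In the labels, Dam protein expression was induced with doxycycline at 2 µg/mL, except for the wild-type sample, for which no doxycycline is given. The other 3 samples were human HEK293T cells with the DamN126A variant, fused to CTCF or alone, and were not used here. Each LAD list is a consensus with positions and no value per sample, and the sources used here do not say which samples entered it. Depth is therefore unknown, no spread between replicates could be computed and no test was run on any difference below. The lists hold no RNA values, so neither the identity of the cells nor the activity of any receptor gene was measured.

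V1R proteins are G protein-coupled receptors of sensory neurons in the apical layer of the vomeronasal organ, where they detect pheromones and other social cues. They signal through an inhibitory G protein and the cation channel Trpc2, and each neuron is thought to express a single receptor gene. The family has expanded in rodents by local duplication, so its genes stand in clusters of close copies with the coding sequence in a single exon. Genes kept silent in a cell type often lie at the nuclear lamina.

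Most Vmn1r genes lay in LADs with both methods. By midpoint, 183 of 228 genes (80.3%) fell inside Nanopore LADs, against a background of 28.9% of all protein-coding genes. By Illumina 177 (77.6%) did, against 25.4%. All 177 were also in Nanopore LADs, where the background of genes in both lists was 24.7%. A further 6 members (2.63%) lay in a Nanopore LAD only, beside 4.18% of all genes. No member lay in an Illumina LAD only, a class that held 0.674% of all genes, and 45 (19.7%) lay in neither list, beside 70.4% of all genes. Neighbouring members share LADs and are not independent, so these shares carry no interval.

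The members fell into 13 clusters when genes of a chromosome were joined while neighbouring midpoints lay at most 1 Mb apart. Clusters are named here by chromosome, with a letter in order of position where a chromosome has several. In 9 of the 13 clusters, every member lay in LADs of both lists. These were 4 (2 genes), 6a (28), 6b (8), 6c (15), 7b (24), 7c (1), 7e (2), 13 (35) and 17 (14). Cluster 7a had 9 of 11 members in both lists, and the single genes Vmn1r1 on chromosome 1 and Vmn1r238 on chromosome 18 lay in neither. Cluster 7d, with 86 genes, had 39 members in both lists, 6 in a Nanopore LAD only and 41 in neither. Of the 51 members not in LADs of both lists, 47 (92.2%) belonged to 7d. Without that cluster 138 of 142 members (97.2%) lay in both lists and 4 in neither.

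**Figure D1:**
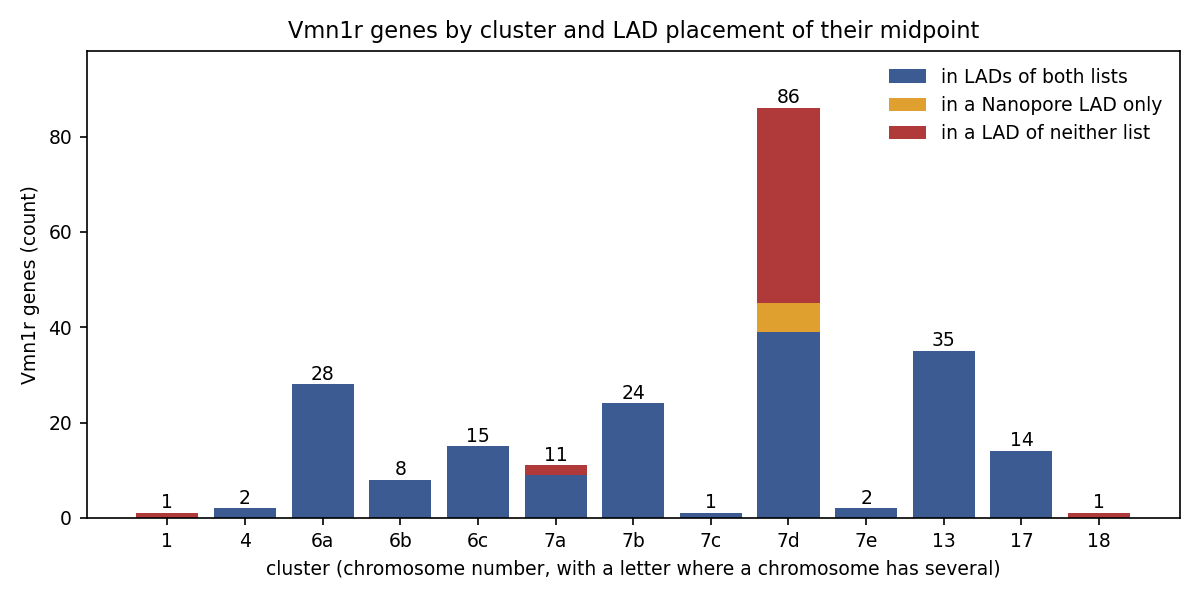
Number of Vmn1r genes (vertical axis, count) in each of 13 clusters (horizontal axis), with bars divided by the LAD placement of the gene midpoint and the total printed above. Cluster 7d has 86 members, 41 of them in neither list, while 9 clusters have every member in LADs of both lists.

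The sequence just around the annotated start of a member could be read for 205 of the 228 placed genes from RefSeq windows on GRCm38.p6 that run from 250 bases before the start to 50 after it. In 180 of these the letters ATG came directly after the first 250 bases, so for most members the window lies upstream of the coding sequence rather than of a mapped transcription start. Of the gene models, 199 of 228 had a length that is a multiple of 3, as models of coding length do. The windows of 6 members are printed here in lower case from 5′ to 3′ on the strand of the gene, with GATC, the site that Dam methylates, in capitals. The first 3 are from cluster 7d, where copies of one sequence had different placements. Vmn1r111 stands for 6 genes with the same window (Vmn1r111, Vmn1r118, Vmn1r131, Vmn1r138, Vmn1r257 and Vmn1r166). Vmn1r107 shares its window with Vmn1r155, and Vmn1r93 shares its window with Vmn1r114, Vmn1r126 and Vmn1r250. None of the 3 holds a GATC site.
Vmn1r111 (GRCm38.p6, chr7:20703167-20703466, minus strand): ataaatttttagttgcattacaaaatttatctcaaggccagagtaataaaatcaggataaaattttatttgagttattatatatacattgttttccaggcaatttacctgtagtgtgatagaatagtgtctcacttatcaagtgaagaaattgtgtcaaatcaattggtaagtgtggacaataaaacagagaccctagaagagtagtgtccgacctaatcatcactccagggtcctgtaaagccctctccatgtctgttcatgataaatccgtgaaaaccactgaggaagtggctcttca
Vmn1r107 (GRCm38.p6, chr7:20668668-20668967, plus strand): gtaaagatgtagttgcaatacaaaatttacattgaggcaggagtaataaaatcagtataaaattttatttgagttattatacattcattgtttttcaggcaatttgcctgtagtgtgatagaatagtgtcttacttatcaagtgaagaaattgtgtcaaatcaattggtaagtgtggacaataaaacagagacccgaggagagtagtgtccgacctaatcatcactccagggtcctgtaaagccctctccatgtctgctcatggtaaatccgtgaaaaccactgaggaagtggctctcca
Vmn1r93 (GRCm38.p6, chr7:20139039-20139338, minus strand): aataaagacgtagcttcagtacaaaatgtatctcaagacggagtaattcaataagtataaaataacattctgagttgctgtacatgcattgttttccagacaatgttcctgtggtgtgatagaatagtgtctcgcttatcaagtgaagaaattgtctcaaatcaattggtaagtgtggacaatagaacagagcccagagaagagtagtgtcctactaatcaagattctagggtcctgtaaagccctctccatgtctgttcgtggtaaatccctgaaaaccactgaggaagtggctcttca

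The windows of Vmn1r111 and Vmn1r107 were 92.7% identical (22 differences by edit distance), and each was about as far from that of Vmn1r93, at 85.3% and 84.7%. The next windows are those of Vmn1r1, a lone gene outside LADs, of Vmn1r188, the first gene of cluster 13, and of Vmn1r211 from the same cluster, which is 1 of the 2 members with 4 GATC sites.
Vmn1r1 (GRCm38.p6, chr1:182158049-182158348, minus strand): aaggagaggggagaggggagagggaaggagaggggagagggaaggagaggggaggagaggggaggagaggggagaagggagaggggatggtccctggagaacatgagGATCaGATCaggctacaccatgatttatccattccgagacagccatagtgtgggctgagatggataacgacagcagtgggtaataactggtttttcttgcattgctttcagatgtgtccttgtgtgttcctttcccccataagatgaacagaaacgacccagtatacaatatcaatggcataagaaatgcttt
Vmn1r188 (GRCm38.p6, chr13:22087628-22087927, plus strand): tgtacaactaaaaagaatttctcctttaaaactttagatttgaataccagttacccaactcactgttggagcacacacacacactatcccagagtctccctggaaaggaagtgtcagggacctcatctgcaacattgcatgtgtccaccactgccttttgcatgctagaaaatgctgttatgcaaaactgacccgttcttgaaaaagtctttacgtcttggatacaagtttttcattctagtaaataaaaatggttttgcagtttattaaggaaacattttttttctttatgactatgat
Vmn1r211 (GRCm38.p6, chr13:22852446-22852745, minus strand): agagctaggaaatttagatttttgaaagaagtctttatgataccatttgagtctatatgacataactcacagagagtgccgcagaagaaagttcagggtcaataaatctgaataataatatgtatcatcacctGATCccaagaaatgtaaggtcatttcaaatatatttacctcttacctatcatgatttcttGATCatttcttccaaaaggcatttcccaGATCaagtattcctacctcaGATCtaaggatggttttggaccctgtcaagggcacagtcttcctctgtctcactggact

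The window of Vmn1r1 was 42.0 to 44.7% identical to the other 5 shown, and those of Vmn1r188 and Vmn1r211 were 52.3% identical to each other, and both genes lie in the same LAD. Across chromosomes the most alike pair of members was Vmn1r9 of chromosome 6 and Vmn1r80 of chromosome 7, at 55%. What unrelated sequences score on this measure was not computed, so values this low need not mean shared sequence.

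Cluster 13 carried 35 genes, Vmn1r188 to Vmn1r223, from 22087878 to 23250323 on chromosome 13. Its members include all 20 genes with a V1rh synonym and all 9 with a V1ri synonym, older names that sort the receptors by sequence family. One LAD with the same borders in both lists, 22060001 to 23360000, held all 35. The LAD began 27.9 kb before the first member and ended 109.7 kb after the last. Histone genes stood outside it on both sides: of 46 histone genes within 500 kb of the cluster, 46 lay in neither list, beside 70.4% of all protein-coding genes. The nearest, H2bc11, an H2B gene, ended at 22043658, before the LAD border. On the distal side the first histone gene, H4c8, began at 23531044. Within the same 500 kb, 4 other protein-coding genes lay in both lists, the olfactory receptor genes Olfr1362, Olfr11, Olfr1361 and Olfr1360. Zfp322a, a zinc finger gene on the other side (23353103 to 23369208), had its midpoint past the second border.

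On chromosome 6 all 51 members lay in both lists. Cluster 6a held 28 genes from 56923914 to 58472878, with V1rc synonyms for most receptors of clusters 6a and 6b, where 31 of 31 V1rc genes lay in both lists. Its Nanopore LAD ran from 56920001 to 58820000 and its Illumina LAD from 56940001 to 58800000. The Illumina border thus fell within Vmn1r4, whose annotated gene body spans 33695 bases and lay 100% in the Nanopore LAD and 52.3% in the Illumina LAD. The midpoint of Vmn1r4 was 0.76 kb inside the Illumina border. The LADs also covered the 5 other protein-coding genes within the span, which are not receptors: Ppm1k, a mitochondrial protein phosphatase gene, Herc6, Pyurf, Lancl2 and Vopp1. Nt5c3, a nucleotidase gene (56882400 to 56924008), crossed the Nanopore border and overlapped the start of Vmn1r4, but its midpoint lay outside, in neither list.

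Cluster 6b (8 genes, Vmn1r32 to Vmn1r39, 66552183 to 66805332) lay toward the distal end of a wider LAD, 65120001 to 67020000 by Nanopore and 65140001 to 66960000 by Illumina. The LAD ended 214.7 kb after the last member by Nanopore and 154.7 kb after it by Illumina. Cluster 6c (15 genes, Vmn1r40 to Vmn1r54) carried the V1ra and V1rb receptors, whose joint deletion is known to alter maternal aggression and male mating behaviour. All 8 V1ra and 6 V1rb genes lay in both lists. The cluster ran from 89711261 to 90270053, and its LADs were only slightly wider, 89680001 to 90300000 by Nanopore and 89700001 to 90340000 by Illumina. The further 40 kb of the Illumina LAD at the distal end held the midpoints of BC048671 and Chst13, a carbohydrate sulfotransferase gene, which lay in Illumina LADs only. Txnrd3, a thioredoxin reductase gene on the proximal side, lay in neither list.

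Cluster 17 held 14 genes (20419163 to 21314886), including all 5 with V1rf synonyms, within a LAD of 3760 kb that had the same borders in both lists (17660001 to 21420000). This was the widest LAD that held a member. The 7 other protein-coding genes in the span lay in it too. They were the V2R receptor genes Vmn2r108, Vmn2r109 and Vmn2r110, the formyl peptide receptor gene Fpr-rs3, Ppp2r1a, which encodes the scaffold subunit of protein phosphatase 2A, Zfp160 and Gm5681. The pair Vmn1r2 and Vmn1r3 on chromosome 4 (3172083 to 3185305) shared a LAD of 500 kb by Nanopore and 480 kb by Illumina.

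**Figure D2:**
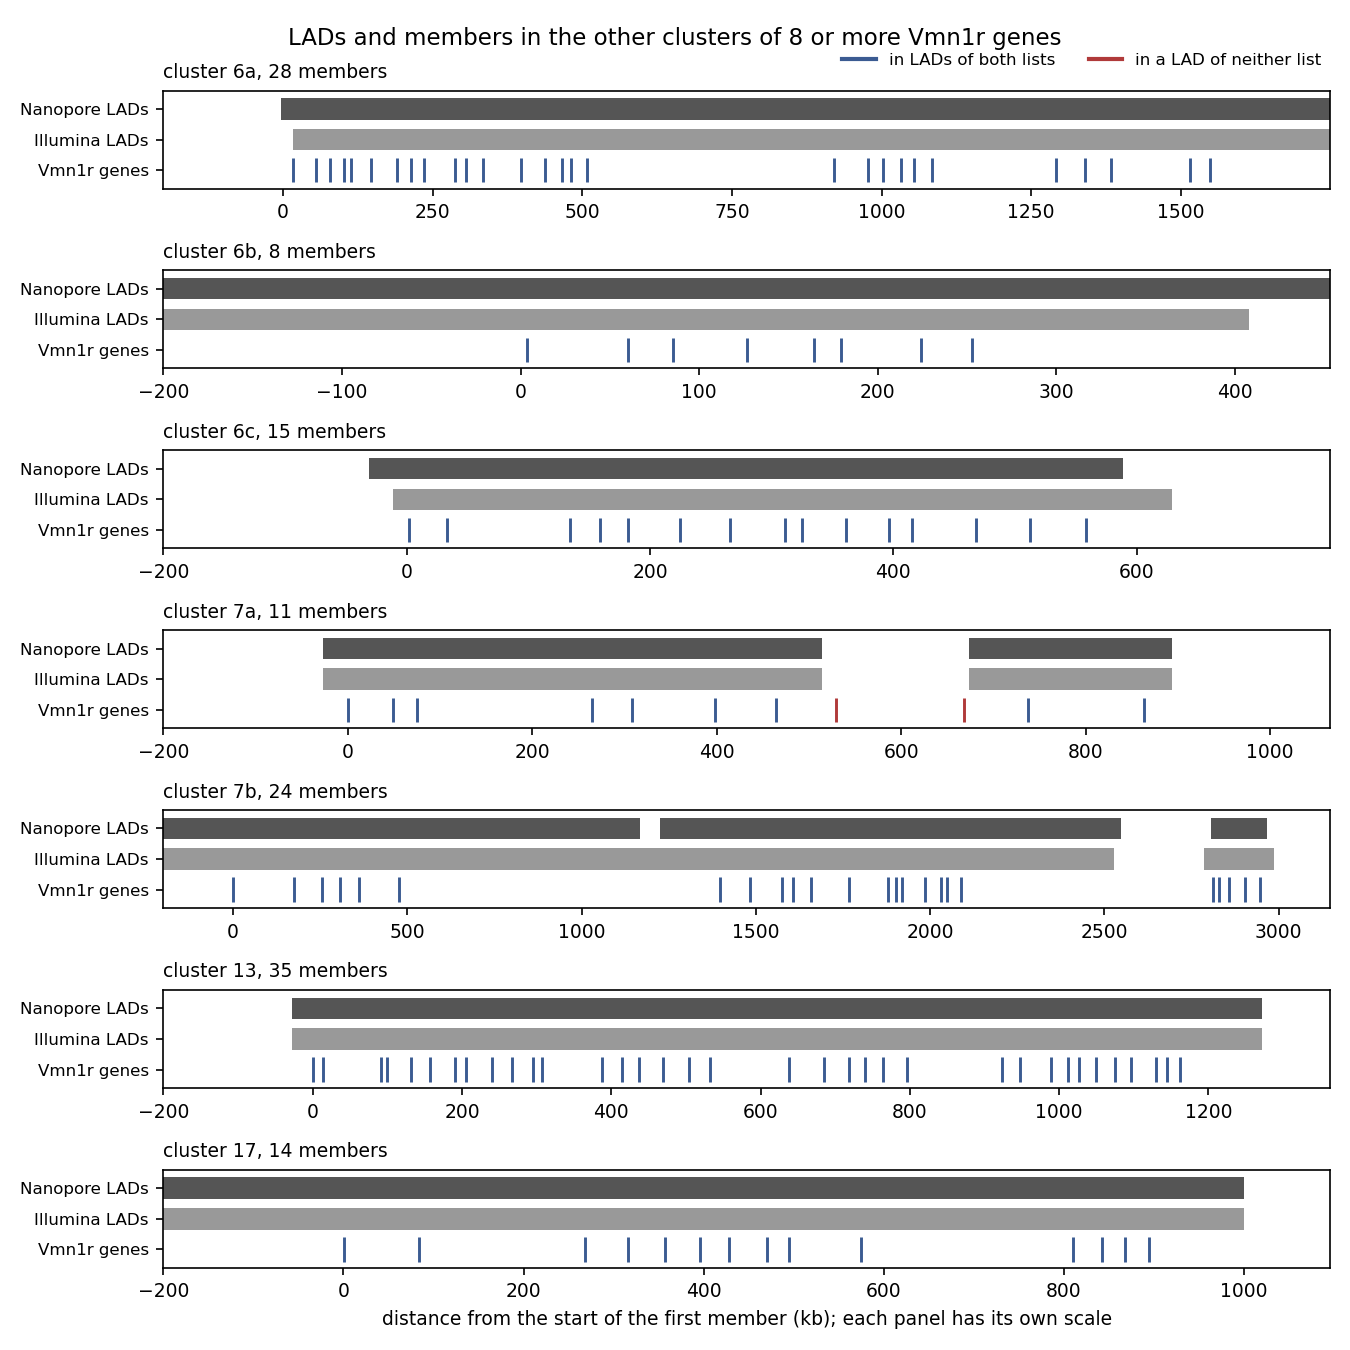
Nanopore LADs (dark bars), Illumina LADs (light bars) and Vmn1r gene midpoints (ticks) in the 7 clusters other than 7d with 8 or more members, with distance from the start of the first member in kb on the horizontal axis and a separate scale per panel. Members lie under LADs of both lists except Vmn1r62 and Vmn1r63 in cluster 7a (red ticks), which stand in the stretch between its 2 LADs.

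Chromosome 7 held 124 placed members, of which 75 (60.5%) lay in both lists, 6 in a Nanopore LAD only and 43 in neither. Other protein-coding genes of this chromosome lay in both lists in 29.0% of 1901 cases. Cluster 7a, at 5146490 to 6011010, held 11 genes and 2 LADs with the same borders in both lists, 5120001 to 5660000 with 7 members and 5820001 to 6040000 with 2. Between them lay Vmn1r62 (5674604 to 5676599), 15.6 kb from the nearest border by midpoint. Vmn1r63 (5802345 to 5826229) lay there as well, and its midpoint was 5.71 kb from a border. Its annotated body spans 23885 bases, and 26.1% of it was in the LAD in each list, so that by any overlap it would count as inside. Of 8 members of 7a with a V1rd synonym these were the only 2 outside. In the flanks within 500 kb, 41 of 48 other protein-coding genes lay in neither list, among them the splicing factor gene U2af2 and the endocytosis gene Epn1.

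Cluster 7b (24 genes, 10273828 to 13220289) had all members in both lists although LADs covered only 89.1% of its span by Nanopore and 91.2% by Illumina. Nanopore had 3 LADs there, with 6, 13 and 5 members, and Illumina had 2, with 19 and 5. The stretch between the first 2 Nanopore LADs, 9860001 to 11440000 and 11500001 to 12820000, held no member. Between the last 2 LADs of each list lay 14 other protein-coding genes in neither list and no Vmn1r gene. They included Trim28, which encodes a corepressor of zinc finger proteins, Chmp2a and Ube2m. The 5 members beyond them sat in a LAD of 160 kb by Nanopore (13080001 to 13240000) and 200 kb by Illumina (13060001 to 13260000). They include Vmn1r85 and Vmn1r89, V1rj receptors that have been described as detectors of sulfated steroids. The midpoint of Vmn1r85 was 4.75 kb inside the Nanopore border and 24.75 kb inside the Illumina border. Cluster 7b also held 11 of 11 genes with a V1rg synonym. Vmn1r90 (7c) and the pair Vmn1r184 and Vmn1r185 (7e) lay inside LADs of 1140 to 2500 kb.

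Cluster 7d spanned 20101158 to 24055691 and held 86 members, Vmn1r91 to Vmn1r183. LADs covered 50.9% of the span by Nanopore and 43.4% by Illumina, close to the shares of members they held (52.3% and 45.3%). Nanopore had 6 LADs and Illumina 5, and along the order of genes placement changed in runs rather than gene by gene. Both lists shared an 800 kb LAD at the distal end (23280001 to 24080000) with 16 members and a 140 kb LAD at 22760001 to 22900000 with 4. A LAD near the proximal end ran from 20620001 to 21460000 by Nanopore, with 20 members, and from 20740001 to 21460000 by Illumina, with 18.

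The 6 members in a Nanopore LAD only came in 3 pairs, 2 of them where the Nanopore LAD reached further than the Illumina LAD and 1 in a Nanopore LAD with no Illumina counterpart. Vmn1r240 and Vmn1r93 lay in a Nanopore LAD at 19980001 to 20140000 whose Illumina counterpart ended at 20120000. Vmn1r107 and Vmn1r111 lay in the 120 kb by which the Nanopore LAD at 20620001 began earlier. Vmn1r137 and Vmn1r138 lay in a Nanopore LAD of 160 kb (21920001 to 22080000), within an Illumina gap of 1300 kb that ran from 21460001 to 22760000 and held 25 members.

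The 41 members of 7d in neither list stood in 4 runs. The first, Vmn1r94 to Vmn1r246, held 12 genes (20167460 to 20576241) in a Nanopore gap of 480 kb. The next, Vmn1r130 to Vmn1r249, held 7 in a gap of 460 kb. The third, Vmn1r139 to Vmn1r257, held 16 in a gap of 680 kb (22080001 to 22760000). The last, Vmn1r258 to Vmn1r166, held 6, spread over Nanopore gaps of 220 and 100 kb that are parted by a small LAD without members in each list. Of 18 other protein-coding genes of the span, placed by the same intervals, 6 lay in both lists, 3 in a Nanopore LAD only and 9 in neither. They include V1rd19 and Gm16451. Nlrp4e and Nlrp5, oocyte genes of the NLR family, were in the distal LAD, while Gm10670, Gm4513 and Gm8600 were in neither.

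**Figure D3:**
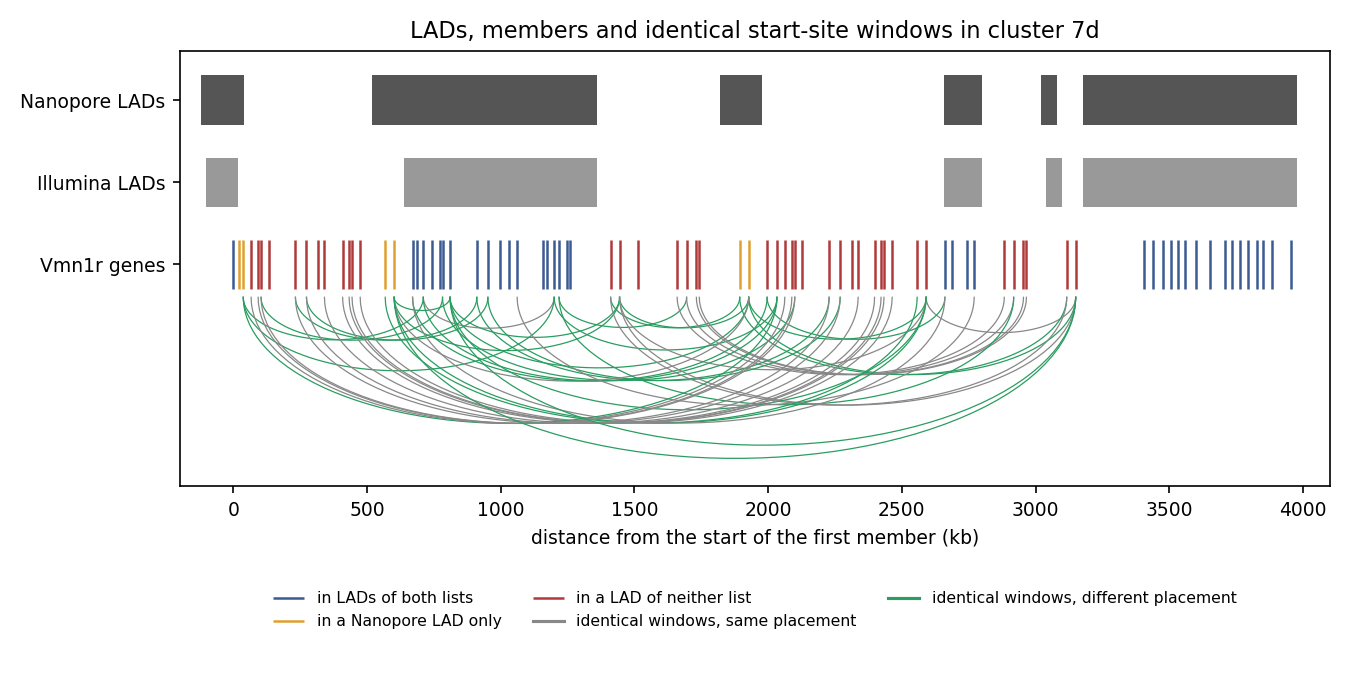
Cluster 7d with Nanopore LADs and Illumina LADs (bars) above the 86 member midpoints (ticks coloured by placement), with distance from the start of the first member in kb on the horizontal axis. Arcs join the 51 pairs of members with identical windows, grey where both have the same placement (22 pairs) and green where placement differs (29 pairs). Each set of 3 or more genes gives several pairs, so pairs are not independent. Of the 20 sets, 11 had a single placement.

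Many windows of 7d were exact copies of one another. Of 83 members of 7d with a window, 52 (62.7%) had exactly the same 300 bases as another member. In other clusters this was true of 2 of 122 (1.64%), the neighbours Vmn1r47 and Vmn1r48 of 6c. Likeness went along with placement inside 7d. Members in neither list had an identical copy in 36 of 40 cases (90.0%), members in a Nanopore LAD only in 5 of 6 and members in both lists in 11 of 37 (29.7%). Many of these members are copies of one another and neighbours share LADs, so the counts are not of independent genes. Read the other way, 36 of 52 members with an identical copy (69.2%) lay in neither list, against 4 of 31 without one (12.9%). Those 4 were Vmn1r242, Vmn1r100 and Vmn1r252, whose nearest windows were 99.3 to 99.7% identical, and Vmn1r148, at 65.3%.

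The 16 members in the 800 kb distal LAD, Vmn1r167 to Vmn1r183, had no identical copy among 15 windows, and their median identity to the nearest other member was 92% (range 50 to 99%). The 18 members of the run from Vmn1r112 to Vmn1r129 also lay in both lists, yet 9 of their 17 windows had an identical copy and the median was 100%. A read that falls wholly in sequence shared by several copies cannot be assigned to one of them. The sources used here do not say how such reads were treated, and the part of shared sequence in these placements was not tested.

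**Figure D4:**
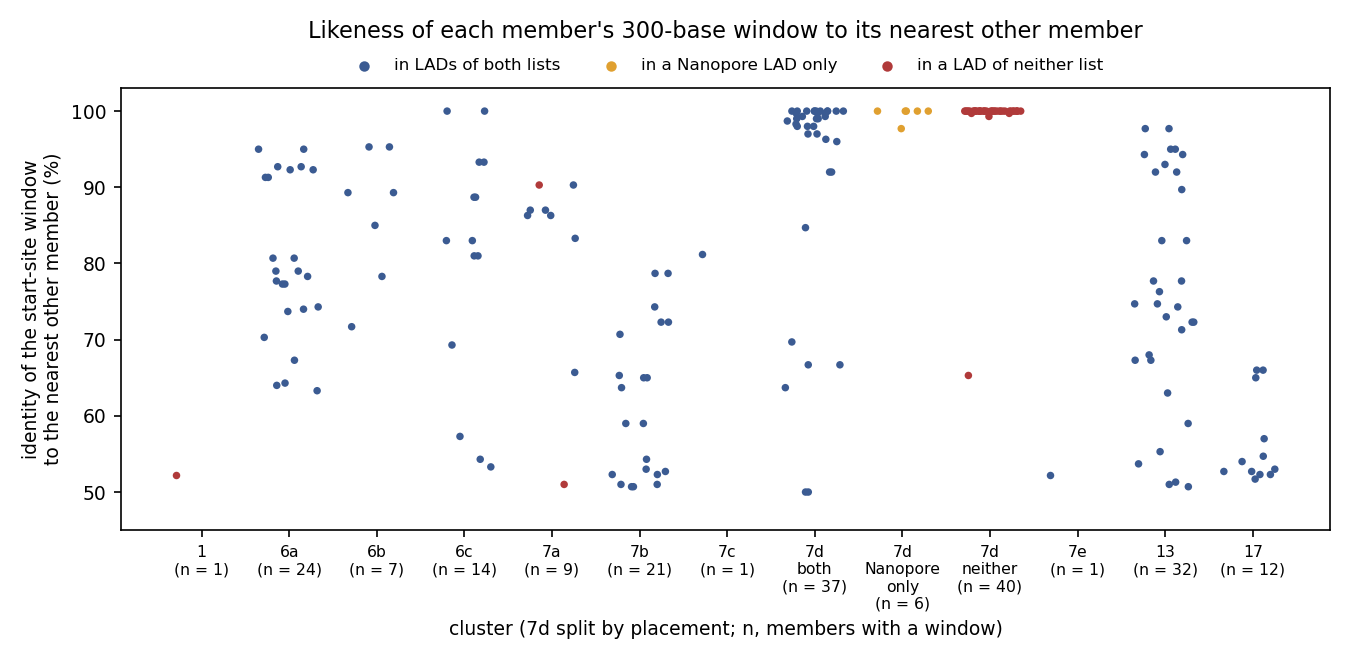
Identity (%) of the 300-base window of each of 205 members to the nearest other member, by cluster, with 7d split by placement; each point is a gene and its colour gives its placement. In 7d the points in neither list sit at 99.3 to 100% apart from Vmn1r148, while the points in both lists range from 50 to 100%.

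Copies with the same window did not always share a placement. The 52 members formed 20 sets of identical windows, 11 with a single placement and 9 with several. All 11 with a single placement were sets of 2 genes. Among sets of 2, only Vmn1r107 and Vmn1r155 differed. Every set of 3 or more genes held several placements, and a larger set has more chances to do so. In the set of 6 printed above, Vmn1r118 lay in both lists, Vmn1r111 and Vmn1r138 in a Nanopore LAD only, and Vmn1r131, Vmn1r257 and Vmn1r166 in neither. In the set of Vmn1r93, which lay in a Nanopore LAD only, Vmn1r114 and Vmn1r126 were in both lists and Vmn1r250 in neither. Vmn1r107 was in a Nanopore LAD only and its copy Vmn1r155 in neither. In sets such as Vmn1r241, Vmn1r117 and Vmn1r251, or Vmn1r243, Vmn1r119 and Vmn1r253, the middle gene by position was in both lists and the outer 2 were in neither. The set of Vmn1r112, Vmn1r139 and Vmn1r157 was the reverse, with the middle gene in neither list and the outer 2 in both. The sets of Vmn1r127 and Vmn1r130 had other orders.

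Identical pairs recurred at like distances along the chromosome. Of the 51 pairs, 14 stood 1989.1 to 1995.7 kb apart, most of them a gene of the first run in neither list with a gene of the third. Both copies lay in neither list in 10 of these 14 pairs, such as Vmn1r94 with Vmn1r142 and Vmn1r95 with Vmn1r143, and placement differed in 3. Another 6 pairs stood 1222.7 to 1223.2 kb apart, with both copies in neither list in 4. Of 6 pairs at 1317.1 to 1325.7 kb, 5 differed in placement. These distance groups were chosen after the values were seen.

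Identical windows were scarcer among the other protein-coding genes of the genome. Among 17069 other protein-coding genes with a window, 204 (1.2%) shared it exactly with another gene. Of these, 77 (37.7%) lay in both lists and 110 (53.9%) in neither, against 24.2% and 71.0% of the 16865 others. That comparison ran over the whole genome and did not hold gene family or cluster constant. It is therefore unlike the comparison of members within the largest cluster, and whether the 2 differ on an equal footing was not tested. Members without an identical copy in any protein-coding gene lay in both lists in 143 of 150 cases (95.3%). Members with one did so in 13 of 55 cases (23.6%). The latter count 1 more gene than above, Vmn1r240, whose window equals that of Gm16451. Most members with a copy belong to the largest cluster and most without one to others, so this contrast is partly between clusters. Within the largest cluster copies were counted among members only. There 26 of 31 members without one (83.9%) lay in both lists, against 11 of 52 with one (21.2%). Of 122 windows in other clusters, 119 belonged to members in both lists and 2 had a copy. Gm16451 stands in the largest cluster and counts among the 204.

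The windows of Vmn1r genes were poor in G and C. Their median G and C content was 36%, against 56.7% over 21045 windows of protein-coding genes, and the median number of CpG dinucleotides was 1 against 13. In 180 of the 205 member windows the annotated start was an ATG, so most lie upstream of coding sequence rather than of a mapped transcription start. How many of the 21045 windows do so was not counted. The comparisons with all windows may therefore set unlike positions side by side and do not describe member promoters. GATC, searched as those 4 letters, which read the same on both strands, occurred in 91 of 205 member windows (44.4%) and in 46.2% of all protein-coding windows. It occurred in 80 of 156 windows of members in both lists (51.3%) and in 11 of 43 of members in neither (25.6%). Many of the latter are copies of one another. Counting each sequence once, 84 of 172 distinct member windows (48.8%) held a GATC, 19 of 51 in 7d and 65 of 121 elsewhere. LAD borders in these lists lie on a grid of 20 kb, which is far coarser than these windows. TATAAA, on either strand, occurred in 42.4% of member windows and 12.7% of all. TAATTA, a palindrome and the core bound by LIM homeodomain factors such as Lhx2, occurred in 7.32% and 4.47%. These counts describe letters in windows of unlike base composition and say nothing of binding.

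Grouped by the older V1r names, which 127 of the 228 members carry, 10 of 11 lettered groups lay wholly in LADs of both lists. V1rc with 31 genes and V1rh with 20 were the most numerous of them, followed by V1re with 13 genes in clusters 7b, 7e and 17. The exception was V1rd, split between 7a and 7d, with 15 of 19 genes in both lists. Outside were Vmn1r62, Vmn1r63 and Vmn1r148 in neither and Vmn1r93 in a Nanopore LAD only. Of the 101 members without such a name, 54 lay in both lists and 42 in neither, and 75 of them belong to 7d.

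The members were held by few LADs. A total of 18 of 1174 Nanopore LADs and 16 of 1149 Illumina LADs on chromosomes 1 to 19 and X contained a member midpoint. Their median width was 820 kb by Nanopore and 760 kb by Illumina, beside 690 and 660 kb over all LADs. The narrowest that held members were the 140 kb Nanopore LAD of Vmn1r157 to Vmn1r160 and the 120 kb Illumina LAD of Vmn1r91. Members inside lay a median of 261 kb from the nearest Nanopore border and 268 kb from the nearest Illumina border. Of these, 16 of 183 by Nanopore and 13 of 177 by Illumina lay within 40 kb of a border, that is 2 steps of the grid. Counting members outside LADs as well, 17 lay within 40 kb of a border in both lists, 9 of them in cluster 7d. Vmn1r93 was 1.4 kb inside a Nanopore border and 18.61 kb outside an Illumina border. Vmn1r240 was 17.88 kb inside and 2.12 kb outside, respectively. Both placements in a single list thus turned on 1 step of the grid. Vmn1r157 was 2.14 kb inside the same border in both lists.

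The lone genes outside LADs were far from any Nanopore LAD. Vmn1r1 (182157178 to 182158098, chromosome 1) stood 418 kb from the nearest Nanopore border and 2782 kb from the nearest Illumina border, beside Srp9, a signal recognition particle gene, and Degs1, a sphingolipid desaturase gene, also in neither list. Vmn1r238 (3122492 to 3123412, chromosome 18) stood 1377 kb from a Nanopore border and 37.05 kb from an Illumina border.

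A larger share of the other protein-coding genes between the members lay in LADs than of those beside the clusters. Of 68 such genes with a midpoint inside a cluster span, 41 lay in both lists, 4 in a Nanopore LAD only and 23 in neither, all 23 of them in 7b and 7d. The 68 include genes of the V1R family whose symbols fall outside the rule, V1ra8, V1rd19 and Vmn1r-ps103, all in both lists. They also include Gm16451, in neither list, whose window equals that of Vmn1r240. Of 232 such genes within 500 kb outside the spans, 48 lay in both lists, 5 in a Nanopore LAD only, 4 in an Illumina LAD only and 175 in neither. Over all protein-coding genes, 24.7% lay in both lists and 70.4% in neither. These differences were not tested.

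Genes known from the signalling and identity of vomeronasal neurons, of the apical V1R layer or the basal V2R layer, were looked up as well. Of 9 genes for vomeronasal signal transduction, 7 lay in neither list, the class of 70.4% of all protein-coding genes: the channel gene Trpc2, the G protein genes Gnai2, Gnao1 and Gng8, the phospholipase gene Plcb2, the calcium release channel gene Itpr3 and the potassium channel gene Kcnn3. Gnai2 is the G protein gene of apical neurons and Gnao1 that of basal neurons. The chloride channel gene Ano2 lay in both lists and its relative Ano1 in a Nanopore LAD only, with 80.8% of its body in it. Among genes for the identity of vomeronasal neurons of either layer, receptor choice and axon guidance, 11 lay in neither list. These were Omp, Meis2, Tfap2e, Lhx2, Ldb1, Lbr, Kdm1a, Neurog1, Kirrel2, Kirrel3 and Nrp2. Bcl11b, a transcription factor gene of neuronal differentiation, lay in both. Kirrel3, an adhesion gene, had 35% of its body in Nanopore LADs and 27.8% in Illumina LADs, with its midpoint outside.

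Other chemoreceptor families were set beside the Vmn1r genes. V2R genes (Vmn2r), receptors of basal vomeronasal neurons, lay in both lists in 117 of 122 cases (95.9%). Olfactory receptor genes (Olfr) did so in 997 of 1105 (90.2%) and bitter taste receptor genes (Tas2r) in 31 of 35 (88.6%). The Vmn1r share of 77.6% was the lowest of the 4 and became 97.2% without cluster 7d. No cluster was left out of the other families, so the Vmn1r shares without 7d have no like value beside them. The share in neither list was 19.7% for Vmn1r and 2.82% for Vmn1r without 7d, beside 2.46% for Vmn2r, 6.06% for Olfr and 5.71% for Tas2r. These differences were not tested.

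**Figure D5:**
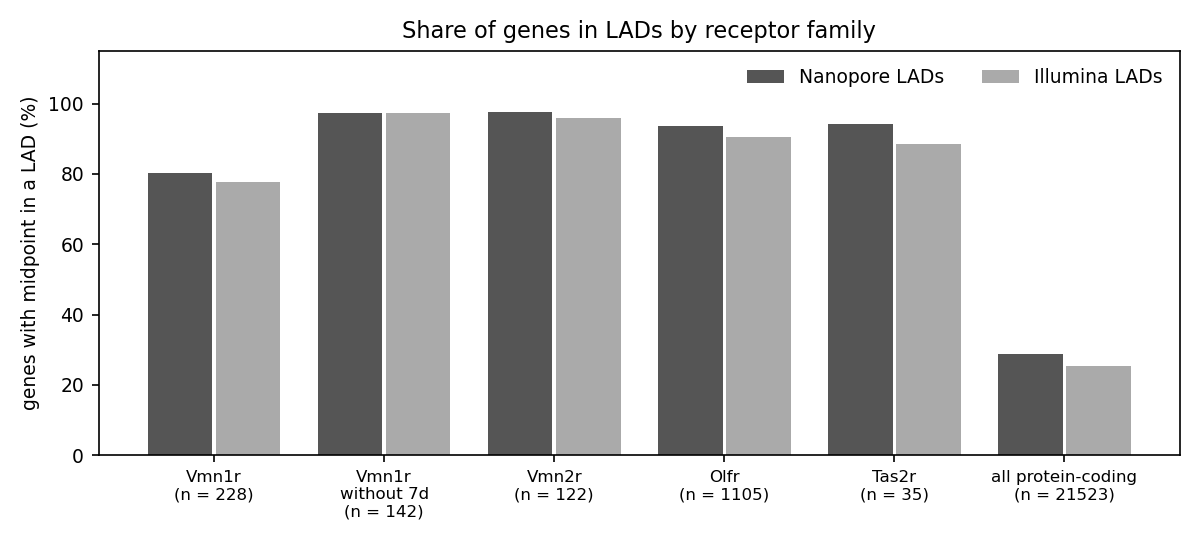
Share of genes (vertical axis, %) with their midpoint in Nanopore LADs (dark bars) and Illumina LADs (light bars) for Vmn1r genes with and without cluster 7d, the other 3 chemoreceptor families and all protein-coding genes, with the number of genes under each name. Vmn1r genes stand at 80.3% and 77.6%, and at 97.2% in each list without 7d, while all protein-coding genes stand at 28.9% and 25.4%. No cluster was left out of the other families.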

How the data were processed

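DamID was run in N2A cells, and the values used are the coordinates of 2 lists of consensus LADs that the authors deposited (1210 Nanopore and 1190 Illumina intervals), without score, count or per-sample column. Per the submitters' processing notes, bedtools, deepTools, SAMtools and minimap2 were used, with mm10 as the mouse build, and neither their roles nor versions are listed. How LADs were called, and what became of reads that map to several places, the sources used here do not say. All borders (100%) fell on multiples of 20 kb. The list of human CTCF peaks was not used.

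Genes, synonyms and start-site windows came from RefSeq tables of GRCm38.p6. Genes listed below 3 Mb were left out (108 protein-coding). A gene was placed by its midpoint. Windows were compared by global edit distance over 300 bases with edlib 1.3.9.post1. Protein sequences were not used here, so comparisons meant for proteins were made on windows instead. No test was run, because the lists hold no samples.

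Named genes are members outside a LAD, first and last members, members within 40 kb of a border in both lists or in the widest and narrowest LADs, lone members, the most alike pairs, the pathway lists (some genes of the lists or spans are not reported here) and up to 4 other genes per class in a cluster, in order of position. Genes named as neighbours of clusters, Trim28, Chmp2a, Ube2m, Vopp1, Fpr-rs3, Ppp2r1a, Zfp160, Gm5681, Gm8600, Nlrp4e and Nlrp5, and the sets of identical windows were chosen after their values were seen. The members and lists were chosen with earlier results of these data known. Python 3.11.15, numpy 2.4.6, pandas 2.3.3 and matplotlib 3.10.9 were used.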

Additional observations from a re-analysis of the deposited data

How the results depend on the processing

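Placing genes by any overlap, by 50% or all of the body or by the start site, joining LADs up to 100 kb apart or leaving out LADs under 100 kb gave 183 to 185 members in Nanopore LADs, 176 to 179 in Illumina LADs and 43 to 45 in neither. Vmn1r63 entered both lists by any overlap, Vmn1r4 left the Illumina list when its whole body had to lie inside, and Vmn1r165 and Vmn1r166 entered when LADs were joined. Clusters numbered 15 when joined up to 500 kb and 12 up to 2 Mb, against 13. Adding 138 pseudogenes gave 304 of 366 in Nanopore LADs, 294 in Illumina LADs and 293 in both, shares of 83.1%, 80.3% and 80.1%. Leaving out cluster 7d changed the number in neither list from 45 to 4. In 2 alternatives chosen after seeing the data, members without a window were left out together with those sharing an identical window, which left 7 of 151 in neither list (4.64%), or with those at least 95% identical to another, which left 4 of 122 in neither (3.28%) and 118 in Nanopore LADs. No paired analysis was possible because the lists hold no samples. Depth, and so the precision of any border, is unknown.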

Other observations

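Vmn1r pseudogenes were placed in the same way as the receptor genes. Of 138 placed pseudogenes, 116 (84.1%) lay in both lists, 5 in a Nanopore LAD only, 1 in an Illumina LAD only and 16 in neither. Inside cluster 7d 5 of 13 lay in both lists and 6 in neither, while elsewhere 111 of 125 (88.8%) lay in both. Among protein-coding genes, 3 whose symbols name them as V1R genes fall outside the rule, V1ra8 in cluster 6c, V1rd19 in cluster 7d and Vmn1r-ps103 in cluster 13, and each lay in both lists. Genes of the family under other symbols were not searched for, and Gm16451 in cluster 7d, whose window equals that of Vmn1r240, lay in neither.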
